A study of Arabidopsis thaliana with 12 samples.

Results

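The UDP-glycosyltransferases (UGTs) of *Arabidopsis thaliana* are a large family of enzymes, and their transcripts were followed here in seedlings lacking a functional red-light receptor, seedlings with a weakened brassinosteroid (BR) receptor, and seedlings with both defects. A probe set of the Affymetrix ATH1 array was taken as a member where it stood for 1 gene with a systematic UGT symbol, that is the letters UGT followed by a family number, a subfamily letter and a gene number. The rule used names only and no signal. It gave 50 probe sets for 50 genes, of 22746 probe sets tested. Of these, 47 were named by the array's annotation, and *UGT84A2*, *UGT74E2* and *UGT74F2* only through the tables of the study. Those tables list genes selected on the same seedlings, so these 3 are not independent evidence of a direction. The current RefSeq annotation holds 58 genes with such a symbol, and the other 8, *UGT71D1*, *UGT73B2*, *UGT73B3*, *UGT73C6*, *UGT75B1*, *UGT75B2*, *UGT85A1* and *UGT89B1*, had no probe set of their own that could be named.

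UGTs move a sugar from a UDP-sugar, most often glucose, onto a small acceptor molecule. The sugar makes the acceptor more soluble and ready for storage in the vacuole, and it often switches a hormone off or activates a phenolic acid for a later transfer. Different members act on sinapate and lignin precursors, flavonols and anthocyanins, auxin, cytokinin, abscisic acid, salicylate, sterols, glucosinolate precursors and foreign compounds. Phytochrome B is the main red-light receptor of green seedlings, and BRI1 is the cell-surface receptor for BRs, steroid hormones of growth that are themselves inactivated by glucosylation.

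RNA of whole seedlings was hybridised to 12 arrays, 3 per genotype, labelled as biological replicates. The genotypes were *phyB-77*, in which a base substitution puts a premature stop codon into *PHYB*, *bri1-5*, a weak allele of *BRI1*, the double mutant *phyB-77 bri1-5*, and the wild type Ws-2, from which *phyB-77* was derived by mutagenesis. Continuous red light was kept on all of them for the 7 days of growth given in the methods. No probe set of *PHYB* or *BRI1* had a name, so the mutated genes could not be checked. The deposited log2 signals had been made by robust multi-array averaging (RMA), and signals of different probe sets are not comparable in height, so only genotypes are compared below. Member means over the 12 arrays lay between 2.95 and 9.60, with 22 members above and 28 below 5.93, the median of all probe sets. The spread between replicates was small, with a median SD of 0.11 for a member within a genotype and a largest SD of 0.51.

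All 12 arrays entered a limma fit over 22746 probe sets, and a gene is called higher or lower here at an adjusted p (Benjamini-Hochberg) below 0.01, whatever its fold change. Differences are given on the log2 scale, tested genotype minus the one it is set against. The interaction is the effect of *phyB-77* in the *bri1-5* background minus its effect in Ws-2. The standard error of a member's difference had a median of 0.11, and that of its interaction a median of 0.15. In RNA of whole seedlings, fewer cells of a type and less RNA per cell cannot be told apart. Marker signals were summed on the linear scale and the sums put on the log2 scale, so the brightest probe sets weigh most. For the 5 seed storage markers this gave 12.6 to 12.7 in *phyB-77* and 9.05 to 9.47 in *bri1-5*. It gave 12.2 to 12.3 in the double mutant and 8.97 to 9.12 in Ws-2. The 4 measured green shoot markers summed to 14.7 to 15.0 in *phyB-77*, 15.2 to 15.3 in *bri1-5*, 15.3 in the double mutant and 15.2 to 15.3 in Ws-2, and the 4 root markers to 13.0 to 13.4 in all genotypes. Single markers were called as well. In *phyB-77* all 5 seed markers were higher, 3 of 4 green markers were lower and 1, *PORB*, was higher by 0.60, and 3 of 4 root markers were lower. In *bri1-5* 2 seed markers, *SESA1* and *SESA3*, were lower, and 2 root markers were higher and 1 lower. In the double mutant 3 seed markers were higher and 1 lower, *PORB* was higher by 0.64, and 3 root markers were lower. Their part in the results below was not tested.

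In *phyB-77*, 13 of the 50 UGT genes (26%) were higher than in Ws-2 and 0 were lower. Over all probe sets 15.3% were called, 8.56% as higher and 6.77% as lower. At an unadjusted p under 0.05 in the same limma fit, 21 members were higher and 4 lower. The increases were moderate, between 1.32-fold for *UGT73C7* and 1.92-fold for *UGT85A5*. The median difference of the 50 members was 0.16, against 0.01 for all probe sets, and 35 members lay above 0. Among the 47 members named by the annotation, 10 were higher and 0 lower, beside 7.27% higher and 5.91% lower of all singly annotated probe sets. Centring each array on its own median turned the split over all probe sets to 1582 higher and 1983 lower, from 1946 and 1541, whereas the members then counted 11 higher and 1, *UGT72B3*, lower.

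In *bri1-5*, 6 members were higher and 4 lower than in Ws-2. Over all probe sets 19.1% were called, 10.5% higher and 8.61% lower, so that the 20% of members called lay close to the share of the whole array. The higher genes were *UGT73B4*, *UGT73B1*, *UGT74E2*, *UGT85A4*, *UGT74F2* and *UGT72E3*, by 1.30-fold to 1.60-fold, and the lower ones *UGT84A2*, *UGT74B1*, *UGT80B1* and *UGT78D2*, by 1.35-fold to 1.64-fold. Of the annotation-named members, 4 were higher and 3 lower. The median of the members was 0.00 and that of all probe sets 0.01.

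In *phyB-77 bri1-5*, *UGT74E2*, *UGT72E2*, *UGT85A4* and *UGT85A2* were higher and *UGT78D2*, *UGT74B1*, *UGT76E11* and *UGT71B1* lower than in Ws-2. These 8 are 16% of the members, beside 14.6% of all probe sets, of which 6.55% were higher and 8.01% lower. Among the comparisons with Ws-2, the largest difference of a member in either direction was found here, 1.03 for *UGT74E2* (2.04-fold higher) and -0.96 for *UGT78D2* (1.95-fold lower). Of the annotation-named members, 3 were higher and 4 lower. The median of the members was -0.05, that of all probe sets -0.02. The comparisons with Ws-2 share the Ws-2 arrays. In at least 1 of them 21 members (42%) were called, beside 32.7% of all probe sets, and 6 were called in exactly 2. *UGT74E2* and *UGT85A4* (4% of the members) were called in all 3, beside 3.4% of all probe sets. All 3 members named through the study's tables are among the 21, and of the annotation-named members 18 of 47 (38.3%) were called in at least 1, beside 28.6% of the singly annotated probe sets. The arrays of mutant and wild type did not overlap for 25 members in *phyB-77* (36.4% of all probe sets), 18 in *bri1-5* (37.6%) and 24 in the double mutant (43.4%).

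**Figure D1:**
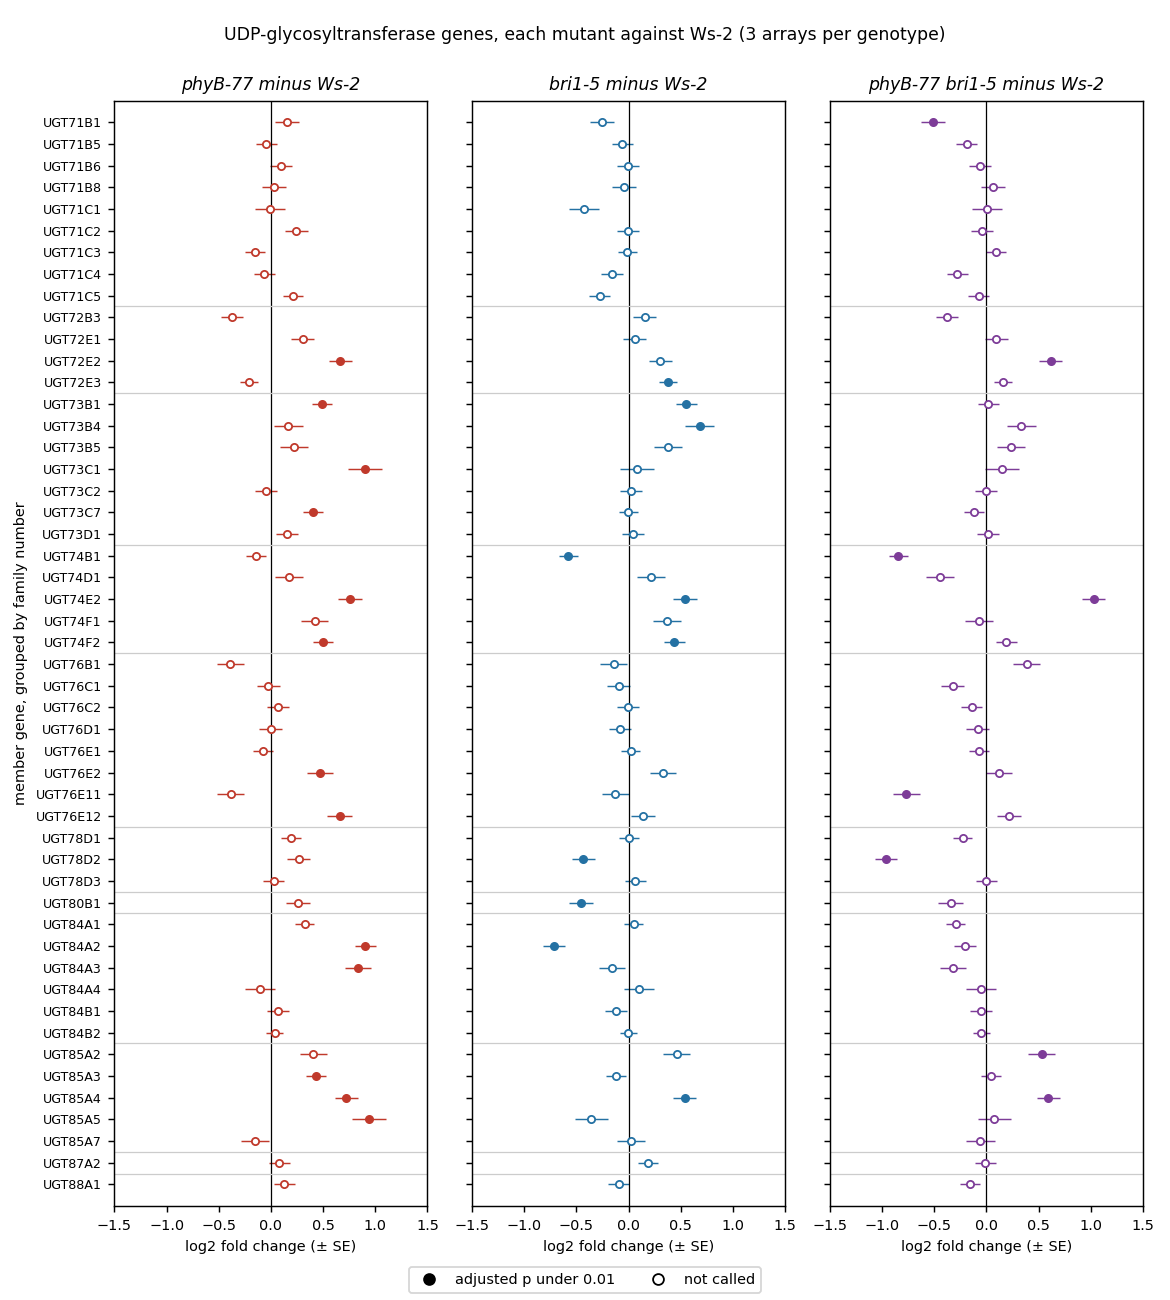
Difference of each mutant from Ws-2 in log2 units (points, bars ± SE, 3 arrays per genotype) for the 50 UGT genes, ordered by family number from top to bottom, with filled points for an adjusted p under 0.01. The filled points of *phyB-77* (left) all lie to the right of 0, whereas *bri1-5* (middle) has 6 to the right and 4 to the left, and the double mutant (right) 4 on each side.

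The UGT84A and UGT72E enzymes act on the phenylpropanoid pathway, which leads to lignin and to the sinapate esters that screen ultraviolet light. *UGT84A2* (At3g21560), which makes sinapoylglucose, the precursor of sinapoylmalate, had log2 signals of 10.28, 9.96 and 10.13 in *phyB-77*, 8.54, 8.67 and 8.30 in *bri1-5*, 9.06, 8.97 and 9.01 in the double mutant, and 9.16, 9.26 and 9.24 in Ws-2. The *phyB-77* arrays lay above and the *bri1-5* arrays below those of every other genotype. The difference from Ws-2 was 0.91 ± 0.10 (SE) in *phyB-77* (adjusted p = 2.6e-06) and -0.72 ± 0.10 in *bri1-5* (adjusted p = 3.8e-05), which made it the only member called in opposite directions in the single mutants. *UGT84A2* is named only through the study's tables of selected genes, so its membership is not independent of these calls. The double mutant, with all 3 arrays slightly below Ws-2, differed by -0.21 (adjusted p = 0.18). It was 1.42-fold higher than *bri1-5* (adjusted p = 0.0010) and 2.16-fold lower than *phyB-77* (adjusted p = 2.9e-07).

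*UGT84A3* (At4g15490), a hydroxycinnamate glucosyltransferase, had signals of 6.94, 6.60 and 6.92 in *phyB-77*, 5.79, 5.83 and 5.86 in *bri1-5*, 5.80, 5.86 and 5.34 in the double mutant, and 6.03, 5.91 and 6.02 in Ws-2. It thus stood high in *phyB-77* alone, by 0.83 ± 0.12 relative to Ws-2 (adjusted p = 5.3e-05), whereas the double mutant was 2.23-fold lower than *phyB-77* (adjusted p = 1.5e-06). The same effect of *phyB-77* was -0.16 (adjusted p = 0.37) in the *bri1-5* background, and the interaction was -0.99 ± 0.17 (adjusted p = 0.00042). *UGT84A1* (At4g15480), of the same enzyme type, had signals of 4.52, 4.33 and 4.53 in *phyB-77*, 4.18, 4.23 and 4.15 in *bri1-5*, 3.78, 3.78 and 3.97 in the double mutant, and 4.08, 4.25 and 4.09 in Ws-2. The *phyB-77* arrays lay above and the double mutant below the other genotypes, but neither difference from Ws-2 was called (0.32, adjusted p = 0.015, and -0.30, adjusted p = 0.027). The interaction was -0.67 ± 0.13 (adjusted p = 0.0011). *UGT84A1*, *UGT84A3* and *UGT84A4* (At4g15500) lie side by side in a tandem cluster, and *UGT84A4* was not called in any comparison, with differences from Ws-2 of -0.11 in *phyB-77*, 0.10 in *bri1-5* and -0.05 in the double mutant.

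*UGT72E2* (At5g66690), which glucosylates coniferyl alcohol, a lignin precursor, had signals of 7.75, 7.77 and 7.66 in *phyB-77*, 7.09, 7.47 and 7.53 in *bri1-5*, 7.70, 7.76 and 7.58 in the double mutant, and 7.19, 6.97 and 7.04 in Ws-2. Both genotypes with *phyB-77* lay above Ws-2 without overlap, by 0.66 ± 0.11 in *phyB-77* (adjusted p = 0.00017) and 0.62 ± 0.11 in the double mutant (adjusted p = 0.00038), and *bri1-5* overlapped with Ws-2. No other member was called higher in both of these but not in *bri1-5*, where it differed by 0.30 (adjusted p = 0.048). Its relative *UGT72E3* (At5g26310) had 4.81, 4.70 and 4.70 in *phyB-77*, 5.30, 5.37 and 5.27 in *bri1-5*, 5.19, 5.09 and 5.03 in the double mutant, and 4.97, 4.85 and 5.00 in Ws-2, and was higher in *bri1-5* by 0.37 ± 0.09 (adjusted p = 0.0029). This call was lost without *bri1-5* replicate 2 (adjusted p = 0.011) or Ws-2 replicate 2 (adjusted p = 0.020), with robust estimation (adjusted p = 0.011) and with only the arrays compared (adjusted p = 0.013). *UGT72E1*, the third of the group, differed by 0.30 in *phyB-77* (adjusted p = 0.057) and by 0.06 and 0.10 in *bri1-5* and the double mutant. Of the 8 measured genes listed for sinapate and lignin precursors, 3 were higher in *phyB-77*, 1 was higher and 2 lower in *bri1-5*, and 1 was higher and 1 lower in the double mutant, with medians of 0.31, 0.05 and -0.13. *UGT84A2*, named only through the study's tables, is among the 3 higher in *phyB-77* and the 2 lower in *bri1-5*. The shares of all probe sets called higher in these comparisons were 8.56%, 10.5% and 6.55%, and those called lower 6.77%, 8.61% and 8.01%. The list includes *GT72B1*, known also as *UGT72B1*, which glucosylates chlorinated phenols and monolignols and is no member by its symbol. It was lower by 0.48 in *bri1-5* (adjusted p = 0.00071) and by 0.58 in the double mutant (adjusted p = 0.00016).

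**Figure D2:**
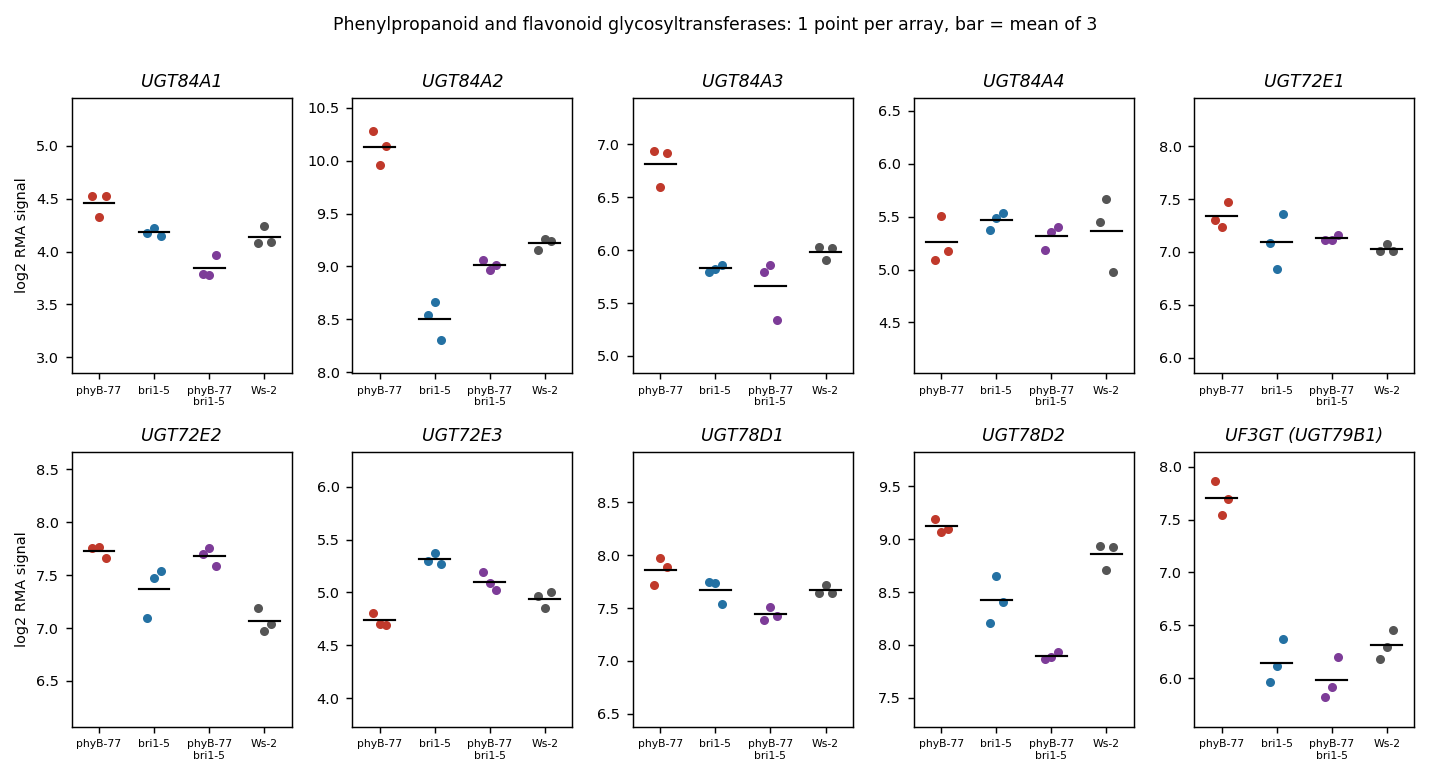
Log2 RMA signal of 10 phenylpropanoid and flavonoid glycosyltransferase genes in *phyB-77*, *bri1-5*, the double mutant and Ws-2 (1 point per array, 3 arrays per genotype, bars at the mean), each panel spanning the same number of log2 units around its own centre. *UGT84A2*, *UGT84A3* and *UF3GT* stand highest in *phyB-77*, *UGT72E2* is raised with and without *bri1-5* wherever *phyB-77* is present, and *UGT78D2* is lowest in the double mutant, at 7.86 to 7.93.

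Flavonols and anthocyanins gain their first sugar through UGT78D enzymes. *UGT78D2* (At5g17050), the flavonoid and anthocyanidin 3-O-glucosyltransferase, had signals of 9.19, 9.07 and 9.10 in *phyB-77*, 8.20, 8.66 and 8.41 in *bri1-5*, 7.86, 7.89 and 7.93 in the double mutant, and 8.93, 8.71 and 8.92 in Ws-2. The 4 genotypes did not overlap, and their order was *phyB-77*, Ws-2, *bri1-5* and the double mutant from high to low. Relative to Ws-2 the difference was 0.26 (adjusted p = 0.086) in *phyB-77*, whereas *bri1-5* differed by -0.43 ± 0.11 (adjusted p = 0.0047) and the double mutant by -0.96 ± 0.11 (adjusted p = 1.8e-06). The double mutant was 2.34-fold lower than *phyB-77* (adjusted p = 1.2e-07). The effect of *phyB-77* was therefore -0.53 in the *bri1-5* background (adjusted p = 0.00097), and the interaction was -0.79 ± 0.15 (adjusted p = 0.00089). The *bri1-5* call was lost when *bri1-5* replicate 1 or 3 or Ws-2 replicate 1 or 3 was left out (adjusted p = 0.013 to 0.031), and with only the arrays compared (adjusted p = 0.023).

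*UGT78D1* (At1g30530), the flavonol 3-O-rhamnosyltransferase, was not called against Ws-2 in any mutant (0.19, 0.00 and -0.23 in *phyB-77*, *bri1-5* and the double mutant), but was 1.34-fold lower in the double mutant than in *phyB-77* (adjusted p = 0.0024). The last comparison missed the threshold without *phyB-77* replicate 2 or 3 or double mutant replicate 1 or 3 (adjusted p = 0.011 to 0.016), and narrowly with median-centred arrays (adjusted p = 0.011) or a second quantile normalization (adjusted p = 0.010). *UGT78D3*, a flavonol arabinosyltransferase, stayed within 0.07 of Ws-2 in all mutants. *UF3GT* (At5g54060), whose synonym is *UGT79B1* and which adds xylose to anthocyanins, is no member by its symbol but belongs to the same route. Its signals were 7.86, 7.55 and 7.70 in *phyB-77*, 5.96, 6.11 and 6.37 in *bri1-5*, 5.83, 5.91 and 6.20 in the double mutant, and 6.18, 6.29 and 6.46 in Ws-2. It was 2.62-fold higher in *phyB-77* than in Ws-2 (1.39 ± 0.12, adjusted p = 9.4e-08), while the double mutant overlapped with Ws-2 (-0.33, adjusted p = 0.066), and the interaction was -1.56 ± 0.18 (adjusted p = 4.7e-06). With *UF3GT*, 1 of the 4 measured flavonoid genes was higher in *phyB-77*, beside 8.56% of all probe sets. *UGT78D2* was the one lower in *bri1-5* and in the double mutant, beside 8.61% and 8.01% of all probe sets called lower.

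Salicylate, the defence hormone, is stored as glucosides. *UGT74F1* (At2g43840) and its tandem neighbour *UGT74F2* (At2g43820) glucosylate it, and *UGT76B1* (At3g11340) acts on salicylate, isoleucic acid and N-hydroxypipecolic acid. *UGT74F2* had signals of 8.63, 8.61 and 8.75 in *phyB-77*, 8.55, 8.55 and 8.70 in *bri1-5*, 8.37, 8.41 and 8.28 in the double mutant, and 8.32, 8.21 and 7.96 in Ws-2. Both single mutants were higher than Ws-2, by 0.50 ± 0.10 in *phyB-77* (adjusted p = 0.00099) and 0.44 ± 0.10 in *bri1-5* (adjusted p = 0.0025), whereas the double mutant overlapped with Ws-2 (0.19, adjusted p = 0.20). The interaction was -0.75 ± 0.14 (adjusted p = 0.00080). The *bri1-5* call was lost without *bri1-5* replicate 3 (adjusted p = 0.012) or Ws-2 replicate 3 (adjusted p = 0.022), and with only the arrays compared (adjusted p = 0.014).

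*UGT74F1* had a similar order of genotypes, with 5.64, 5.45 and 5.38 in *phyB-77*, 5.11, 5.66 and 5.55 in *bri1-5*, 4.97, 4.97 and 5.05 in the double mutant, and 5.29, 4.85 and 5.08 in Ws-2. Neither single mutant was called for it (0.42, adjusted p = 0.027, and 0.37, adjusted p = 0.043), but the interaction was (-0.86 ± 0.19, adjusted p = 0.0025). *UGT76B1* ran the other way, with 8.35, 8.57 and 8.14 in *phyB-77*, 8.34, 8.73 and 8.74 in *bri1-5*, 8.92, 9.21 and 9.26 in the double mutant, and 8.63, 8.83 and 8.77 in Ws-2. The *phyB-77* arrays lay below and those of the double mutant above Ws-2, neither of them called (-0.39, adjusted p = 0.036, and 0.39, adjusted p = 0.039). The double mutant was 1.71-fold higher than *phyB-77* (adjusted p = 0.00020) and 1.44-fold higher than *bri1-5* (adjusted p = 0.0047), and the interaction of 0.92 ± 0.18 (adjusted p = 0.0013) was the only positive one called in the family. The comparison with *bri1-5* missed the threshold without *bri1-5* replicate 1 or double mutant replicate 2 or 3 (adjusted p = 0.025 to 0.032), and with only the arrays compared (adjusted p = 0.012). *UGT76D1*, which glucosylates dihydroxybenzoic acids, and *UGT73D1* differed from Ws-2 by at most 0.15 in any mutant.

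Auxin is conjugated by *UGT74D1*, *UGT74E2*, *UGT84B1* and *UGT84B2* among the measured members. *UGT74E2* (At1g05680), which prefers indole-3-butyric acid and is known as a stress-raised gene, had signals of 5.94, 5.95 and 6.11 in *phyB-77*, 5.78, 5.53 and 6.05 in *bri1-5*, 6.23, 6.25 and 6.34 in the double mutant, and 5.20, 5.37 and 5.17 in Ws-2. Every mutant array lay above every Ws-2 array, and the differences were 0.76 ± 0.11 (adjusted p = 6.1e-05), 0.54 ± 0.11 (adjusted p = 0.0013) and 1.03 ± 0.11 (adjusted p = 1.7e-06) in *phyB-77*, *bri1-5* and the double mutant. The interaction was -0.27 ± 0.16 (adjusted p = 0.26). *UGT74D1* (At2g31750) had 8.72, 8.33 and 8.34 in *phyB-77*, 8.64, 8.73 and 8.15 in *bri1-5*, 7.83, 7.94 and 7.78 in the double mutant, and 8.42, 8.21 and 8.24 in Ws-2. Only the double mutant stood apart, below all other arrays, with a difference from Ws-2 of -0.44 (adjusted p = 0.024), a 1.53-fold lower level than in *phyB-77* (adjusted p = 0.0024) and a 1.58-fold lower level than in *bri1-5* (adjusted p = 0.0011). Its interaction was -0.83 ± 0.19 (adjusted p = 0.0039). The interaction was lost when any 1 of 7 arrays was left out, namely *phyB-77* replicate 1, *bri1-5* replicate 1 or 2, double mutant replicate 1 or 3 and Ws-2 replicate 2 or 3 (adjusted p = 0.010 to 0.013), and the comparison with *phyB-77* without *phyB-77* replicate 1 or double mutant replicate 1 or 3 (adjusted p = 0.011 to 0.018). *UGT84B1*, an indole-3-acetic acid glucosyltransferase, and *UGT84B2* differed from Ws-2 by at most 0.12 in any mutant.

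No member on the lists for cytokinin and abscisic acid was called, beside 13.8% to 19.4% of all probe sets, depending on the comparison. These lists need not hold every gene with such an activity. *UGT76C1* and *UGT76C2*, tandem neighbours that glucosylate cytokinins at nitrogen atoms, were not called in any comparison, with differences of -0.02 and 0.07 in *phyB-77*, -0.10 and -0.01 in *bri1-5*, and -0.32 and -0.14 in the double mutant (at an unadjusted p under 0.05 in limma, 1 of the 2, *UGT76C1*, was lower there). The 3 measured genes for abscisic acid, *UGT71B6*, *UGT71B8* and *UGT71C5*, were not called either, with differences between -0.28 and 0.21 against Ws-2 (unadjusted, *UGT71C5* was higher in *phyB-77* and lower in *bri1-5*). Neither of the listed BR glucosyltransferases, *UGT73C5* and *UGT73C6*, was a member. A probe set that the study's tables assign to *UGT73C6* carries a suffix that marks probes shared with similar genes, and it had 5.73, 5.19 and 5.52 in *phyB-77*, 4.94, 5.00 and 4.46 in *bri1-5*, 4.89, 4.73 and 4.50 in the double mutant, and 4.74, 4.56 and 4.47 in Ws-2. This mixed signal was 1.85-fold higher in *phyB-77* than in Ws-2 (adjusted p = 0.00019), and the other mutants overlapped with Ws-2.

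*UGT74B1* (At1g24100) adds glucose to the sulphur of thiohydroximates, a core step of glucosinolate synthesis. Its signals were 8.15, 8.01 and 8.13 in *phyB-77*, 7.70, 7.61 and 7.69 in *bri1-5*, 7.42, 7.46 and 7.32 in the double mutant, and 8.21, 8.41 and 8.10 in Ws-2. Both genotypes with *bri1-5* lay below all other arrays, by -0.58 ± 0.09 in *bri1-5* (adjusted p = 0.00012) and -0.84 ± 0.09 in the double mutant (adjusted p = 1.8e-06) relative to Ws-2, while *phyB-77* overlapped with Ws-2 (-0.15, adjusted p = 0.31). The interaction was -0.12 (adjusted p = 0.60).

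Both listed sterol glucosyltransferase genes, of which only *UGT80B1* is a member, were lower in *bri1-5*, beside 8.61% of all probe sets. *UGT80B1* (At1g43620) had 7.62, 7.31 and 7.17 in *phyB-77*, 6.76, 6.69 and 6.50 in *bri1-5*, 6.64, 6.94 and 6.72 in the double mutant, and 7.14, 7.19 and 6.99 in Ws-2. Against Ws-2 it was lower by 0.46 ± 0.12 in *bri1-5* (adjusted p = 0.0065), and it differed by -0.34 in the double mutant (adjusted p = 0.043), which was 1.52-fold lower than *phyB-77* (adjusted p = 0.00082). The *bri1-5* call was lost without *bri1-5* replicate 2 or 3 or Ws-2 replicate 1 or 2 (adjusted p = 0.012 to 0.034), and with array weights (adjusted p = 0.015). The second sterol enzyme, annotated as *SGT* with the synonym *UGT80A2* and no member by its symbol, was lower by 0.32 in *bri1-5* (adjusted p = 0.0092) and by 0.51 in the double mutant (adjusted p = 0.00020).

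Stress-raised and detoxifying UGTs were among those called higher in the single mutants. Of the 5 measured genes on that list, 3 were higher in *phyB-77*, 3 in *bri1-5* and 1 in the double mutant, with medians of 0.49, 0.54 and 0.24, beside 8.56%, 10.5% and 6.55% of all probe sets called higher. *UGT74E2*, described above and named only through the study's tables, is the one called in all 3. *UGT73B1* (At4g34138) had 6.34, 6.07 and 5.98 in *phyB-77*, 6.10, 6.26 and 6.23 in *bri1-5*, 5.74, 5.65 and 5.59 in the double mutant, and 5.57, 5.64 and 5.70 in Ws-2. Both single mutants lay above the double mutant and Ws-2, which overlapped. The difference from Ws-2 was 0.49 ± 0.10 (adjusted p = 0.0012) in *phyB-77*, while *bri1-5* differed by 0.55 ± 0.10 (adjusted p = 0.00032) and the double mutant by 0.02 (adjusted p = 0.93). The interaction of -1.02 ± 0.14 (adjusted p = 3.8e-05) was the largest of the family. *UGT73B4* (At2g15490), whose enzyme can glucosylate breakdown products of the explosive TNT, had 4.88, 4.91 and 4.79 in *phyB-77*, 5.04, 5.74 and 5.35 in *bri1-5*, 4.86, 5.16 and 5.06 in the double mutant, and 4.69, 4.52 and 4.87 in Ws-2. It was higher in *bri1-5* by 0.68 ± 0.14 (adjusted p = 0.0011), the largest increase of a member in that genotype, and its tandem neighbour *UGT73B5* differed by 0.38 (adjusted p = 0.037).

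*UGT73C1* (At2g36750), with the same activity on TNT products, had 4.86, 4.05 and 3.93 in *phyB-77*, 3.39, 3.53 and 3.47 in *bri1-5*, 3.48, 3.58 and 3.53 in the double mutant, and 3.35, 3.28 and 3.51 in Ws-2. It was 1.87-fold higher in *phyB-77* (0.90 ± 0.16, adjusted p = 0.00042), where replicate 1 stood well above the other 2, and 1.68-fold lower in the double mutant than in *phyB-77* (adjusted p = 0.0021). That difference, -0.75 with all arrays, was -0.46 without *phyB-77* replicate 1 (adjusted p = 0.0025), and the call was lost without double mutant replicate 1 (adjusted p = 0.011) or with only the arrays compared (adjusted p = 0.010). *UGT73C2*, next to it on the chromosome, stayed within 0.05 of Ws-2 in all mutants. *UGT73C7* (At3g53160) had 3.57, 3.80 and 3.89 in *phyB-77*, 3.27, 3.42 and 3.35 in *bri1-5*, 3.23, 3.15 and 3.33 in the double mutant, and 3.34, 3.36 and 3.34 in Ws-2, and was higher in *phyB-77* by 0.40 ± 0.10 (adjusted p = 0.0043). This call was lost without *phyB-77* replicate 2 or 3 or any 1 of the Ws-2 arrays (adjusted p = 0.015 to 0.030) and with median-centred arrays (adjusted p = 0.016).

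The UGT85A genes, whose acceptors in the plant are less well known, gave 3 of 5 members higher in *phyB-77*, beside 8.56% of all probe sets. *UGT85A5* (At1g22370) had the largest increase of the family in that genotype, with 5.98, 5.14 and 5.74 in *phyB-77*, 4.19, 4.40 and 4.38 in *bri1-5*, 4.88, 4.76 and 4.64 in the double mutant, and 4.42, 4.86 and 4.76 in Ws-2. The *phyB-77* arrays lay above all others and the *bri1-5* arrays below all others. Relative to Ws-2 the difference was 0.94 ± 0.16 (adjusted p = 0.00025) in *phyB-77*, whereas *bri1-5* differed by -0.36 (adjusted p = 0.11) and the double mutant by 0.08 (adjusted p = 0.81).

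*UGT85A4* (At1g78270), which lies outside the tandem cluster of the other 4, was raised in each mutant, with 5.44, 5.12 and 5.22 in *phyB-77*, 5.20, 5.18 and 4.84 in *bri1-5*, 5.17, 5.09 and 5.13 in the double mutant, and 4.55, 4.68 and 4.39 in Ws-2. The differences were 0.72 ± 0.11 (adjusted p = 8.7e-05), 0.54 ± 0.11 (adjusted p = 0.0012) and 0.59 ± 0.11 (adjusted p = 0.00064), the double mutant was not called against either single mutant, and the interaction was -0.67 ± 0.16 (adjusted p = 0.0049). Without Ws-2 replicate 3 the *bri1-5* call was lost (adjusted p = 0.011). The interaction call was kept only without *phyB-77* replicate 2 or 3, *bri1-5* replicate 3 or Ws-2 replicate 2, and missed the threshold without any 1 of the other 8 arrays (adjusted p = 0.011 to 0.018), with median-centred arrays (adjusted p = 0.011) and with a second quantile normalization (adjusted p = 0.014).

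Within the tandem cluster, *UGT85A3* (At1g22380) was higher in *phyB-77* by 0.43 ± 0.10 (adjusted p = 0.0026). Its arrays there, at 4.94, 5.18 and 5.05, lay above those of *bri1-5* (4.53, 4.52 and 4.46), the double mutant (4.69, 4.72 and 4.62) and Ws-2 (4.79, 4.59 and 4.49), although the call was lost without *phyB-77* replicate 2 or Ws-2 replicate 2 or 3 (adjusted p = 0.014 to 0.022). *UGT85A2* (At1g22360) had 6.42, 6.17 and 6.09 in *phyB-77*, 6.09, 6.47 and 6.30 in *bri1-5*, 6.53, 6.13 and 6.41 in the double mutant, and 5.91, 5.60 and 5.96 in Ws-2. All mutant arrays were higher than those of Ws-2, and the double mutant was called (0.53 ± 0.13, adjusted p = 0.0053), whereas *phyB-77* (0.40, adjusted p = 0.030) and *bri1-5* (0.46, adjusted p = 0.011) were not. That call was lost without double mutant replicate 1 or 3 or Ws-2 replicate 1 or 2 (adjusted p = 0.011 to 0.042). *UGT85A7*, the last measured gene of the cluster, stayed within 0.15 of Ws-2.

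**Figure D3:**
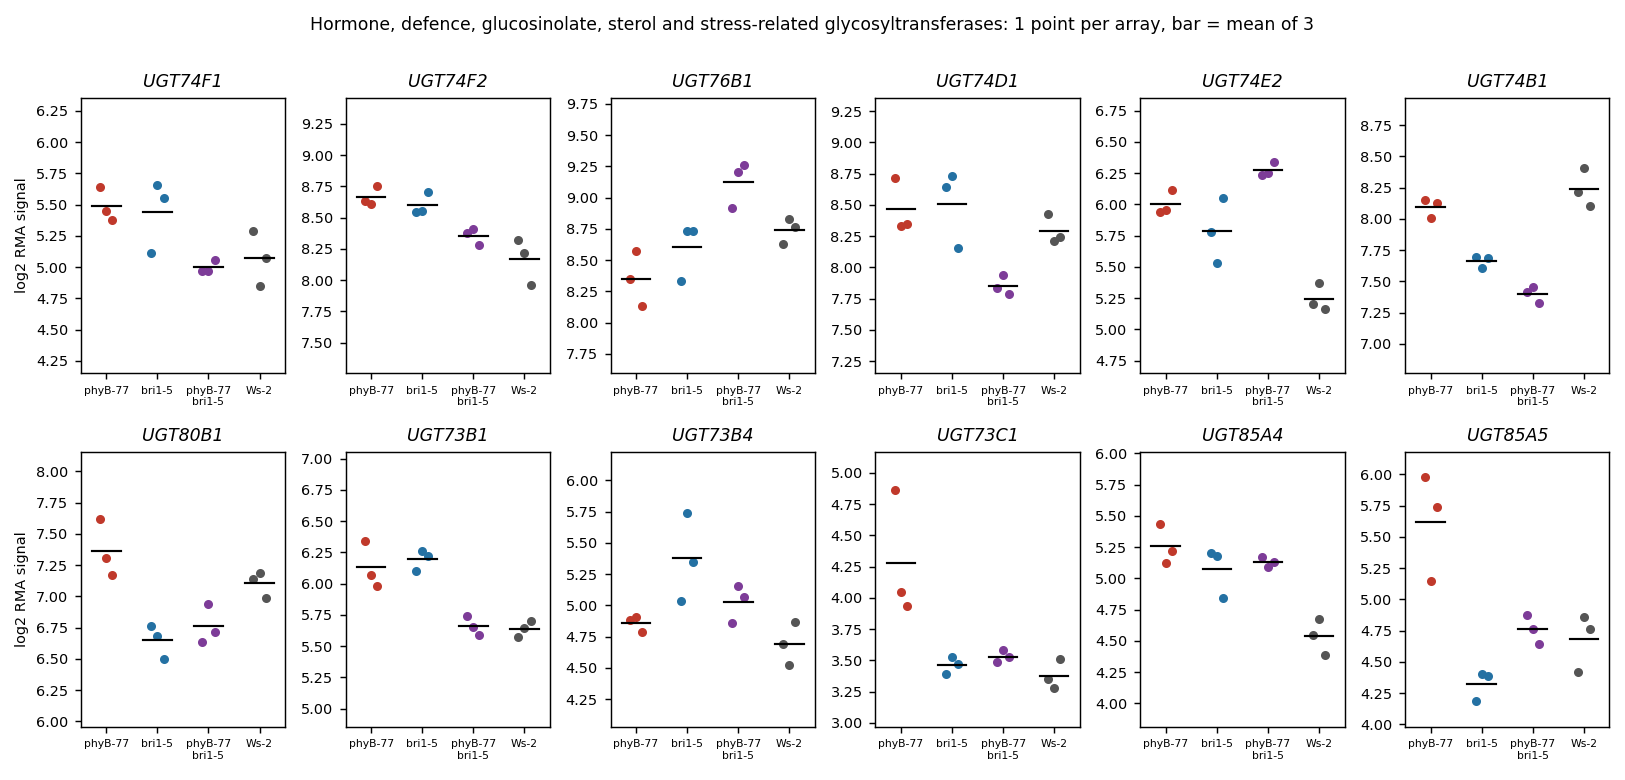
Log2 RMA signal of 12 UGT genes for salicylate, auxin, glucosinolates, sterols, stress or an unassigned role in *phyB-77*, *bri1-5*, the double mutant and Ws-2 (1 point per array, 3 arrays per genotype, bars at the mean), each panel spanning the same number of log2 units around its own centre. *UGT74E2* and *UGT85A4* lie above Ws-2 in every mutant, *UGT74B1* is lowest wherever *bri1-5* is present, and *UGT73B1* is raised in the single mutants but not in the double mutant.

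Tandem neighbours of the UGT76E group were called in different comparisons. *UGT76E12* (At3g46660) had 3.74, 4.09 and 4.13 in *phyB-77*, 3.63, 3.48 and 3.28 in *bri1-5*, 3.43, 3.61 and 3.59 in the double mutant, and 3.19, 3.33 and 3.46 in Ws-2, and was higher in *phyB-77* by 0.66 ± 0.12 (adjusted p = 0.00037). Its neighbour *UGT76E11* (At3g46670) had 5.44, 5.53 and 5.49 in *phyB-77*, 5.52, 5.54 and 6.17 in *bri1-5*, 5.13, 5.08 and 5.11 in the double mutant, and 5.87, 5.93 and 5.82 in Ws-2. It was lower in the double mutant by 0.77 ± 0.13 (adjusted p = 0.00021) and differed by -0.39 in *phyB-77* (adjusted p = 0.036), where its arrays too lay below Ws-2. *UGT76E2* (At5g59590) had 6.11, 6.10 and 6.61 in *phyB-77*, 6.04, 6.37 and 6.01 in *bri1-5*, 5.97, 5.94 and 5.88 in the double mutant, and 5.78, 5.82 and 5.83 in Ws-2, while its neighbour *UGT76E1* stayed within 0.08 of Ws-2. The difference of *UGT76E2* in *phyB-77*, 0.47 ± 0.12, passed narrowly (adjusted p = 0.0095). It did not pass without *phyB-77* replicate 3 (0.30, adjusted p = 0.067), without *bri1-5* replicate 1 or without any 1 double mutant or Ws-2 array (adjusted p = 0.011 to 0.033), nor with median-centred arrays (adjusted p = 0.021).

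The 9 UGT71 genes were the largest group of members. Over all probe sets, 15.3% were called in *phyB-77*, 19.1% in *bri1-5* and 14.6% in the double mutant against Ws-2, so few calls could be looked for among 9 genes. In *phyB-77* and *bri1-5* 0 of the UGT71 genes were called in limma, with differences between -0.43 and 0.24. At an unadjusted p under 0.05 in limma, 2 were higher in *phyB-77* and 3 lower in *bri1-5*. In the double mutant *UGT71B1* (At3g21750) was lower, with 6.60, 6.66 and 6.72 there, against 7.34, 7.24 and 6.93 in Ws-2, a difference of -0.51 ± 0.12 (adjusted p = 0.0030) that missed the threshold without double mutant replicate 1 or 2 or Ws-2 replicate 1 or 2 (adjusted p = 0.013 to 0.024). Its arrays had 7.49, 7.21 and 7.28 in *phyB-77* and 6.90, 7.08 and 6.75 in *bri1-5*. The tandem cluster of *UGT71B1*, *UGT71B6* and *UGT71B8* thus held 1 called gene, and that of *UGT71C3*, *UGT71C4* and *UGT71C5* held 0 in any of the 6 comparisons.

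The comparison of the double mutant with *bri1-5* asked what *phyB-77* does where BR perception is weakened. Here 3 members were higher and 6 lower, beside 19.4% of all probe sets called (7.77% higher, 11.6% lower). Of the annotation-named members 1 was higher and 6 lower, since *UGT84A2* and *UGT74E2* are named only through the study's tables. The higher genes were *UGT76B1*, *UGT84A2* and *UGT74E2* and the lower ones *UGT74D1*, *UGT76E11*, *UGT73B1*, *UGT78D2*, *UGT72B3* and *UGT84A1*. Calls for *UGT74E2* (1.40-fold) and *UGT84A1* (1.27-fold) were fragile. *UGT74E2* was lost without *bri1-5* replicate 1 or 2 or double mutant replicate 2 or 3 (adjusted p = 0.010 to 0.019) and with only the arrays compared (adjusted p = 0.013). *UGT84A1* was kept only without *phyB-77* replicate 1 or 2, double mutant replicate 3 or Ws-2 replicate 2, and lost without any 1 of the other 8 arrays (adjusted p = 0.011 to 0.046) and in several other settings, median centring (adjusted p = 0.019) and the second quantile normalization (adjusted p = 0.028) among them. Of the 13 genes higher in *phyB-77* against Ws-2, 2 (*UGT84A2* and *UGT74E2*) were also higher in this comparison, 1 (*UGT73B1*) was lower and 10 were not called. Over all probe sets called for *phyB-77* in Ws-2, the shares were 35.4% the same way, 10.9% the other way and 53.7% not called. The 2 called the same way are those named only through the study's tables: of the 10 annotation-named genes 0 were called the same way, 1 the other way and 9 not at all, beside 34.5%, 11% and 54.5% of the singly annotated probe sets.

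The double mutant against *phyB-77* gave the effect of *bri1-5* where phytochrome B is missing, and it held more called members than any other comparison. A total of 2 members, *UGT76B1* and *UGT72E3*, were higher and 15 lower, that is 34%, beside 16% of all probe sets (6.44% higher, 9.51% lower). The median of the members was -0.21, against -0.04 for all probe sets, and the annotation-named members counted 2 higher and 14 lower. Median centring of the arrays changed the split over all probe sets to 1906 higher and 1629 lower, from 1465 and 2163, and that of the members to 2 higher and 12 lower. The lower genes ranged from -1.23 for *UGT78D2* to -0.38 for *UGT85A3*, and 8 of them, *UGT73B1*, *UGT73C1*, *UGT73C7*, *UGT76E12*, *UGT84A2*, *UGT84A3*, *UGT85A3* and *UGT85A5*, were among the 13 raised in *phyB-77*, with which this comparison shares its *phyB-77* arrays. The calls of *UGT72E3*, *UGT73B1*, *UGT76E12* and *UGT85A3* were the less stable among those not yet described. *UGT72E3* missed the threshold without *phyB-77* replicate 2 or 3 or double mutant replicate 1 or 2 (adjusted p = 0.015 to 0.028), and *UGT73B1* without *phyB-77* replicate 1 or double mutant replicate 3 (adjusted p = 0.010 and 0.013). *UGT85A3* missed it without *phyB-77* replicate 2 or 3 or any 1 double mutant array (adjusted p = 0.017 to 0.036), and *UGT76E12* without *phyB-77* replicate 2 or 3 or any 1 double mutant or Ws-2 array (adjusted p = 0.010 to 0.054). Median centring also ended the calls of *UGT76E12* (adjusted p = 0.034) and *UGT85A3* (adjusted p = 0.025), and robust estimation that of *UGT72E3* (adjusted p = 0.014). Leaving out double mutant replicate 1 reduced the 17 calls to 11, the lowest count with an array left out. Of the 10 members called in *bri1-5* against Ws-2, 5 were called the same way here, 1 (*UGT73B1*) the other way and 4 not, beside 24.4%, 6.02% and 69.6% of all probe sets called there. Among these 10, 7 are named by the annotation, of which 4 were called the same way, 1 the other way and 2 not. The singly annotated probe sets gave 22.7%, 5.8% and 71.5%.

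The interaction asks whether the effect of *phyB-77* depended on *BRI1*. It was negative for 10 members and positive for 1, beside 13.8% of all probe sets (4.82% positive, 8.93% negative), and 42 of the 50 members lay below 0, with a median of -0.26 against -0.05 for all probe sets. The annotation-named members counted 9 negative and 1 positive. This split depends on the scaling of the arrays: after median centring, 1659 probe sets were positive and 1474 negative, from 1097 and 2031, the median of all probe sets moved from -0.05 to 0.05, and 7 members were negative and 1 positive. The negative members were *UGT73B1*, *UGT84A3*, *UGT74F1*, *UGT74D1*, *UGT78D2*, *UGT74F2*, *UGT76E2*, *UGT85A4*, *UGT84A1* and *UGT73C7*, and the positive one *UGT76B1*. Of these 11, 6 were among the genes higher in *phyB-77*, and 4, *UGT74D1*, *UGT74F1*, *UGT76B1* and *UGT84A1*, were called in no mutant against Ws-2. The interaction subtracts the difference between *phyB-77* and Ws-2, taken on the same arrays. A gene picked as high in *phyB-77* is thereby drawn towards a negative interaction, so the overlap of 6 is not separate evidence. The share of all probe sets with both calls is not given here. In the UGT74 group 3 of 5 members had a called interaction. For *UGT76E2* (-0.68, adjusted p = 0.0085) the call was kept without *phyB-77* replicate 1 or 2 or *bri1-5* replicate 1 or 3 and lost without any 1 of the other 8 arrays (adjusted p = 0.017 to 0.025) or with median-centred arrays (adjusted p = 0.024). For *UGT73C7* (-0.52, adjusted p = 0.0093) it was kept only without *phyB-77* replicate 1 or *bri1-5* replicate 1, with adjusted p = 0.012 to 0.032 otherwise and 0.042 with median-centred arrays.

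**Figure D4:**
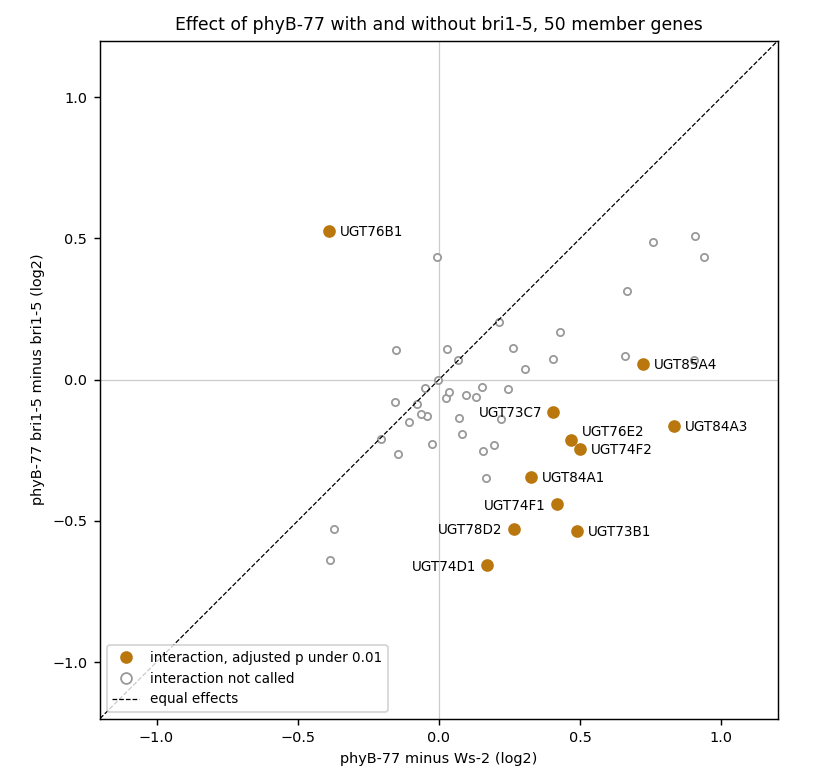
Effect of *phyB-77* on the 50 UGT genes in the *bri1-5* background (vertical axis, double mutant minus *bri1-5*) and in the wild-type background (horizontal axis, *phyB-77* minus Ws-2), in log2 units, the dashed line marking equal effects and filled points for a called interaction. The 10 filled points below the line include *UGT73B1* and *UGT84A3*, and *UGT76B1* is the single filled point above it.

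A total of 29 members were called in no mutant against Ws-2. Their differences lay between -0.39 and 0.42 in *phyB-77*, -0.43 and 0.38 in *bri1-5*, and -0.44 and 0.39 in the double mutant. Of these, 23 were called in none of the 6 comparisons. The share of all probe sets called in none of them was not computed. Of the 23, 14 had a mean signal below the median of all probe sets, beside 28 of all 50 members. Besides those described, the 23 include *UGT87A2*, which affects flowering time, *UGT88A1*, with the highest mean signal of the members (9.60), and *UGT73C2*, with the lowest (2.95). *UGT72B3* was not called against Ws-2 but was 1.44-fold lower in the double mutant than in *bri1-5* (adjusted p = 0.0010).

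UGTs depend on UDP-sugars, and of 27 listed genes for their supply only 4 had a named probe set. *SUS3*, a sucrose synthase, which yields UDP-glucose, was 2.11-fold higher in *phyB-77* than in Ws-2 (1.08, adjusted p = 9.4e-08). *RHM3*, a UDP-rhamnose synthase, and *UXS6*, a UDP-xylose synthase, were lower there by 0.38 (adjusted p = 0.0066) and by 0.41 (adjusted p = 0.0043), and *USP*, a pyrophosphorylase of several UDP-sugars, differed by -0.08 (adjusted p = 0.69). In *bri1-5* and in the double mutant 0 of the 4 were called against Ws-2 in limma, while at an unadjusted p under 0.05 there was 1 higher in *bri1-5* and 1 lower in the double mutant.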

How the data were processed

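The 12 Affymetrix ATH1 arrays held whole-seedling RNA of 4 genotypes. The authors deposited log2 signals made by RMA, which corrects background, equalises the distributions of the arrays and summarises the probes, and so can narrow differences shared by most genes. The software is not given in the sources used here. The age of 7 days is that of the methods, and a figure legend of the study gives another. Signals ranged from 2.36 to 14.23, array medians from 5.88 to 5.99, and array correlations from 0.993 to 0.998 within and 0.970 to 0.988 between genotypes.

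The deposited log2 values were used unchanged, without 64 of 22810 probe sets that are controls. limma 3.58.1 (R 4.3.3) fitted 1 coefficient per genotype, with two-sided tests adjusted by Benjamini-Hochberg over 22746 probe sets, 8 residual degrees of freedom and 9.85 from the prior, and was tested on simulated data. Since nothing says that replicates were grown apart, p-values reflect only how far these arrays scatter. The annotation named 13513 probe sets with 1 gene and 503 with several, a further 1295 were named through tables of the study, and 7435 stayed unnamed. Synonyms and neighbours (UGT genes within 20 kb) came from RefSeq. Probe sets naming several genes (with *UGT73B2*, *UGT73B3*, *UGT89B1* or *UGT71D1*) or with a UGT name only as a synonym (*UF3GT*, *GT72B1*, *SGT*, At5g54010) were no members.

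The members, role lists and markers were chosen with earlier results of these data known. Named with values were up to 6 called members per direction of each comparison with Ws-2 and of the interaction, the role lists, and tandem clusters with at least 3 measured genes. *UGT72B3*, *UGT73C2*, *UGT73C7*, *UGT76E1*, *UGT76E2*, *UGT76E12*, *UGT87A2*, *UGT88A1* and the probe sets outside the family were named after their values were seen. Alternatives were median centring, a second quantile normalization, the dimmest 40% left out, a robust fit with a trend in the variance, weights per array, a block for replicate number, the compared arrays alone, an adjusted p under 0.05, a fold change above 1.5, and each array left out. Python 3.11.15 with pandas 2.3.3 and matplotlib 3.10.9 made the tables and plots.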

Additional observations from a re-analysis of the deposited data

Results flagged for a closer look

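The effect of *phyB-77* differed between the *bri1-5* background and Ws-2 in 11 members by the limma interaction term (adjusted p under 0.01, two-sided, 3 arrays per genotype). The difference of the effects, on the log2 scale, was -1.02 for *UGT73B1*, -0.99 for *UGT84A3*, -0.86 for *UGT74F1*, -0.83 for *UGT74D1*, -0.79 for *UGT78D2*, -0.75 for *UGT74F2*, -0.68 for *UGT76E2*, -0.67 for *UGT85A4*, -0.67 for *UGT84A1* and -0.52 for *UGT73C7*. *UGT76B1*, at 0.92, was the positive one. With 3 arrays a genotype, no array was tested for standing apart.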

How the results depend on the processing

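Over the 104 differences of named members that were recomputed, 2137 values were obtained. Of these, 2070 kept their side of the threshold, 45 missed it and 22 newly passed it. A change of sign in a difference called neither before nor after counts among the 2070, and 0 of the others changed direction. The 104 cover the comparisons with Ws-2, uncalled role-list members included, and up to 6 members per direction of the interaction. They leave out the double mutant against either single mutant. There, 3 of 9 calls against *bri1-5* and 7 of 17 against *phyB-77* were lost without some array, as were 4 of 11 interaction calls. Of the counts of members called, 43 stayed within 1.5 times the first value and 10 did not, and with 1 array left out 67 did and 5 did not. In *phyB-77* against Ws-2 the 13 became 7 with the dimmest 40% of probe sets left out, where only 29 members were tested. There 3170 of 13647 probe sets were called, a share close to that of the members, beside 3487 of 22746 in the first fit. With a fold change above 1.5 the 13 became 8, beside 1771 of all 22746 probe sets. In *bri1-5* the 10 became 16 at an adjusted p under 0.05 and 2 with the fold criterion, beside 6474 and 2158 of all probe sets. In the double mutant the 8 became 13 with array weights (4 higher, 9 lower) and 14 at an adjusted p under 0.05. Of all probe sets, 5191 and 5157 were called in these settings. Against *bri1-5* the double mutant's 9 became 14 at an adjusted p under 0.05 and 2 with the fold criterion, beside 6625 and 2168 of all probe sets. Against *phyB-77* its 17 became 11 with the dimmest left out (3481 of 13647 probe sets) and 11 with the fold criterion (1705 of 22746). The cause was not tested, other than that fewer members were tested or that the threshold itself differed.

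With 1 array left out the counts ranged from 10 to 14 in *phyB-77*, 7 to 12 in *bri1-5*, 6 to 9 in the double mutant, 6 to 10 and 11 to 19 in the double mutant against *bri1-5* and against *phyB-77*, and 7 to 12 for the interaction. The lowest value against *phyB-77* came without double mutant replicate 1, and that of the interaction without Ws-2 replicate 3, *bri1-5* replicate 2, or double mutant replicate 1 or 3. Arrays with the same replicate number did not deviate together, with correlations from -0.19 to 0.08 and 1 array closest to its own number. With the replicate block the counts were 12, 10 and 8 in *phyB-77*, *bri1-5* and the double mutant, 8 and 16 for the double mutant against *bri1-5* and *phyB-77*, and 9 for the interaction. A number of 3 arrays per genotype limits the precision.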
